A study of Mus musculus with 12 samples.

Results

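Neurons release transmitter when synaptic vesicles dock at the active zone, are primed, and fuse with the plasma membrane after calcium enters the terminal. The 42 genes examined here encode that machinery: synapsins and other vesicle proteins, the synaptotagmin and Doc2 calcium sensors, the SNARE fusion proteins with complexins and tomosyn, the Munc13 and RIM priming proteins, the active zone scaffolds, the Rab3 GTPases, and factors that recycle SNAREs and vesicle membrane. They were taken as a list of symbols, and 41 of the 42 were measured among 19938 genes. Vamp2 was the exception, since its probe set carries a pair of gene symbols and was not used. Most of these proteins come from small families whose paralogues differ in calcium affinity, in binding partners and in the neurons that use them. A brain region can therefore be described by the paralogues whose RNA it holds more of.

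The study compared mice lacking RasGRF2, a neuronal activator of Ras and Rac GTPases, with wild-type mice. Hippocampus and olfactory bulb were taken from 3 knockout and 3 wild-type animals, so that 12 arrays form 4 groups of 3: knockout hippocampus, wild-type hippocampus, knockout bulb and wild-type bulb. Animals of both genotypes were untreated adults labelled C57BL/6 and kept in a conventional facility where common pathogens occur. The sources used here give neither sex, exact age and littermate status nor how the allele was made. The knockout is not labelled as limited to a cell type, so every cell of either tissue may carry it. The hippocampus is led by glutamatergic granule and pyramidal neurons, while the bulb is rich in GABAergic granule and periglomerular interneurons around glutamatergic mitral and tufted cells.

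Values are in log2 units of array intensity, as RMA (robust multi-array averaging) gives them, so a difference of 1 is a 2-fold change, and a level is read only against the same probe set on other arrays. Array medians lay at 6.86 to 6.89 in knockout hippocampus, 6.82 to 6.85 in wild-type hippocampus, 6.93 to 6.95 in knockout bulb and 6.95 to 6.96 in wild-type bulb. Rasgrf2 read 8.64, 8.76 and 8.49 in knockout hippocampus, against 9.32, 9.14 and 9.18 in wild-type hippocampus, and fell by 0.58 (SE 0.0772, adjusted p = 0.00197). In the bulb the Rasgrf2 difference was -0.14 and did not pass (adjusted p = 0.532). The sources used here do not place its probes relative to the deletion. The tissue labels fitted their markers. All 9 measured markers of hippocampal neurons were higher in hippocampus in both genotypes, against 14.3% of all genes. All 10 of bulb neurons were lower in both, against 16.3% of all. The lists were chosen with earlier results of these data known, which limits this check of the labels. Prox1, a granule cell factor, averaged 9.86 in knockout hippocampus against 6.61 in knockout bulb, and Th, the dopamine synthesis enzyme of periglomerular cells, 6.63 against 11.10. Every p below comes from limma with Benjamini-Hochberg adjustment over the 19938 genes, and a gene passed at 0.05.

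Most release genes differed between the regions, and paralogues of a family often took opposite sides. Doc2b, Cplx2 and Syt17 were the members with the largest excess in hippocampus, and Syt6, Syt10 and Rab3b those with the largest excess in bulb, in both genotypes. In knockout mice 21 of the 41 members were higher in hippocampus than in bulb (51.2%), against 19.2% of all genes tested, and 11 were lower (26.8%), against 19.9% of all. In wild-type mice 20 were higher (48.8%), against 17.5% of all genes, and 14 were lower (34.1%), against 23.4% of all. The median size of the difference, whatever its sign, was 0.40 for the members in knockout and 0.39 in wild type, against 0.17 and 0.18 over all genes. With the sign kept, the members' median was 0.24 in knockout and 0.07 in wild type, against 0.01 and -0.07 over all genes. The members were bright, with a median level of 9.73 against 7.30 over all genes, and 39 lay above the median gene. Without genes under the median level, 22 of 39 members were higher and 12 lower in knockout, against 3071 and 3192 of 9969 genes. In wild type 20 were higher and 15 lower, against 3150 and 3192 genes. The part of signal level in the shares and sizes was not tested. Members were also chosen with earlier results of these data known. Their shares and sizes against all genes, here and below, are therefore a description and no independent test. In bulk tissue fewer cells of a type and less RNA per cell cannot be told apart, here and in all that follows.

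The median gene and the balance of all calls depend on how arrays are aligned. Centring each array on its median moved the median of all genes to 0.08 in knockout and 0.04 in wild type. Over all genes the calls were then 5330 higher and 3151 lower in knockout, against 3838 and 3966 with the values as deposited, and 4911 higher and 2888 lower in wild type, against 3480 and 4668. Quantile normalization over all arrays gave 5096 higher and 3523 lower in knockout, and 4131 higher and 3758 lower in wild type. Among the members centring gave 23 higher and 10 lower in knockout, against 21 and 11 as deposited, and 20 higher and 10 lower in wild type, against 20 and 14. The calls that centring ended in wild type were Syn1, Doc2a, Cplx3 and Napb. Quantile normalization gave 22 members higher and 11 lower in knockout, and 19 higher and 14 lower in wild type.

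**Figure D1:**
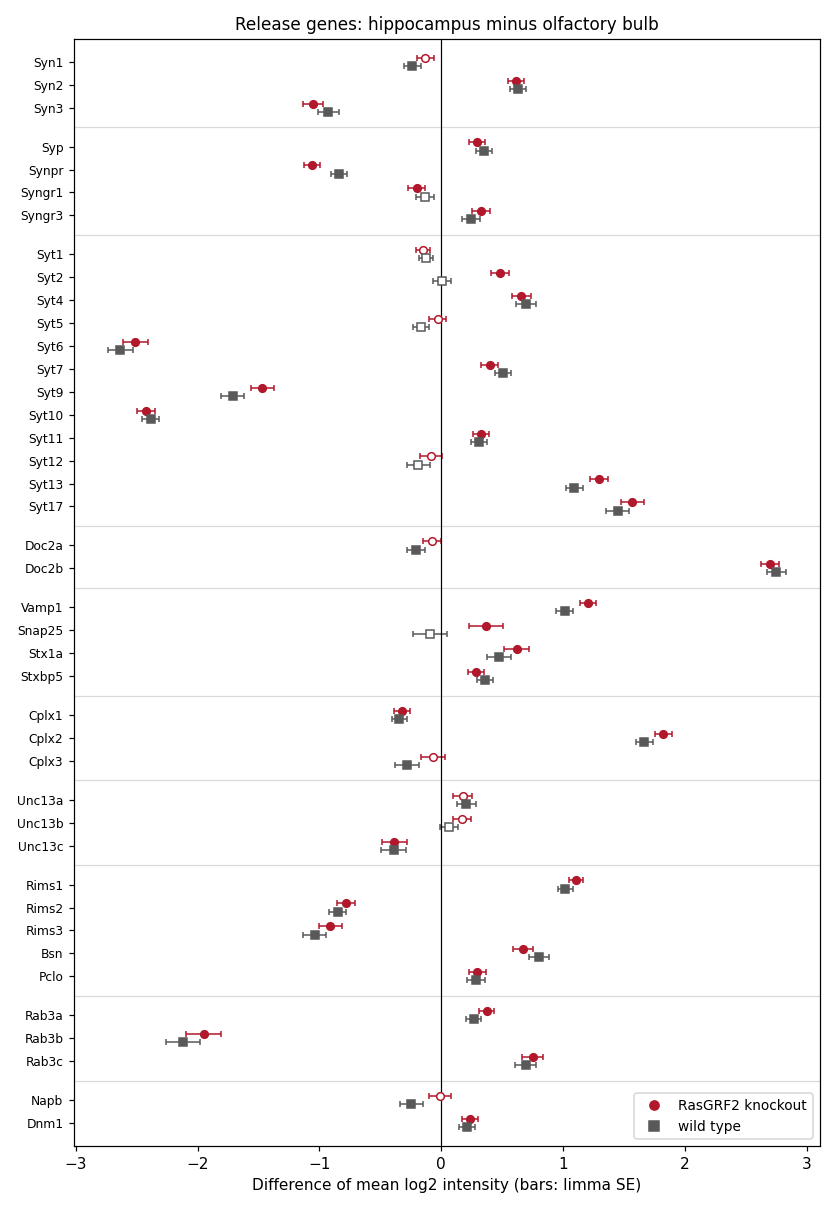
Difference of mean log2 intensity, hippocampus minus olfactory bulb, for each of the 41 measured release genes, with members of a family together. Red circles are RasGRF2 knockout and grey squares wild type (n = 3 arrays a group), bars are limma standard errors, and filled symbols passed adjusted p of 0.05. Every family has symbols on both sides of 0, from -2.63 for Syt6 to 2.75 for Doc2b in wild type.

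The direction was shared by the genotypes. In both genotypes 19 members passed as higher in hippocampus (46.3%), against 14.3% of all genes, and 10 passed as lower in both (24.4%), against 16.3% of all. For each of these 29 genes the hippocampal values of a genotype lay clear of its bulb values. That adds little to the calls, since the genes were picked by passing, and the share over all genes was not counted. The same sign in all 3 animals of each genotype follows from the lack of overlap. A difference over 2-fold in the same direction in both genotypes was found for 10 members (24.4%), against 4.09% of all genes. Doc2b, Cplx2, Syt17, Syt13, Vamp1 and Rims1 were higher, and Syt6, Syt10, Rab3b and Syt9 were lower. The sign agreed between genotypes for 40 of 41 members, and across these genes the differences correlated at r = 0.991. Neither value was computed over all genes, so they are not shown to be particular to the members. The members share the arrays of a comparison and are not independent, but the genotypes share no array. Syt1, Syt5, Syt12 and Unc13b passed in neither genotype.

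**Figure D2:**
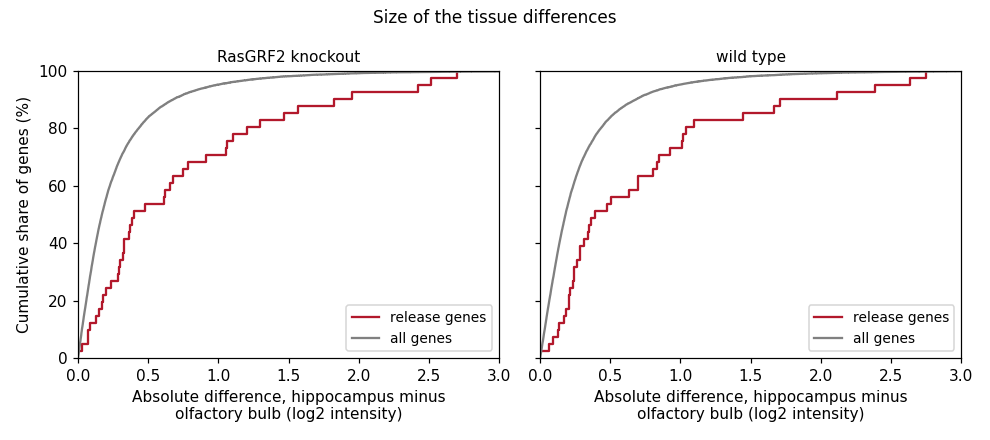
Cumulative share of genes (percent) by the size of the difference between hippocampus and olfactory bulb (absolute log2 difference, axis drawn to 3), in knockout on the left and wild type on the right. The red step line is the 41 release genes and the grey line all 19938 genes, and the red line runs to the right of the grey one over most of its length, with medians of 0.40 and 0.39 against 0.17 and 0.18.

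The calcium sensors held the widest range. Synaptotagmins are vesicle or membrane proteins with paired C2 domains, of which Syt1, Syt2 and Syt9 trigger fast release and Syt7 serves slow release and facilitation. Of 12 measured, 6 were higher and 3 lower in knockout hippocampus, against 19.2% and 19.9% of all genes, and 5 were higher and 3 lower in wild type, against 17.5% and 23.4% of all.

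Syt6, which is known from exocytosis of the sperm acrosome, read 7.10, 7.28 and 7.45 in knockout hippocampus, against 9.94, 9.57 and 9.85 in knockout bulb. Syt6 in wild type read 6.96, 7.09 and 7.13 in wild-type hippocampus, against 9.72, 9.62 and 9.75 in wild-type bulb. Each hippocampal array lay more than 2 log2 units under every bulb array. The hippocampal signal was close to the array median, in the dim range where RMA compresses differences, so the fold may understate the change. Syt6 was lower by 5.7-fold in knockout (-2.51, SE 0.102, adjusted p = 4.46e-11) and by 6.2-fold in wild type (-2.63, adjusted p = 2.73e-11).

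Syt10, a calcium sensor for insulin-like growth factor secretion in bulb neurons of the mouse, read 9.12, 9.11 and 9.07 in knockout hippocampus, against 11.60, 11.49 and 11.48 in knockout bulb. Syt10 in wild type read 9.22, 9.02 and 9.22 in wild-type hippocampus, against 11.51, 11.52 and 11.59 in wild-type bulb. The bulb arrays clustered tightly and all lay far above the hippocampal ones. The difference was -2.42 in knockout (SE 0.0712, 5.37-fold lower, adjusted p = 1.43e-12) and -2.39 in wild type (adjusted p = 1.8e-12).

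Syt9, a fast calcium sensor, read 7.17, 7.27 and 7.31 in knockout hippocampus, against 8.80, 8.63 and 8.74 in knockout bulb. Syt9 in wild type read 7.03, 7.00 and 7.04 in wild-type hippocampus, against 8.50, 8.93 and 8.77 in wild-type bulb. It was thus also a bulb gene, with no overlap in either genotype. Its hippocampal signal too lay close to the array median, so the fold may understate the change. It was lower in hippocampus by 2.77-fold in knockout (SE 0.0938 on the log2 scale, adjusted p = 6.71e-09) and 3.27-fold in wild type (adjusted p = 1.19e-09).

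On the hippocampal side Syt17, also known as B/K protein, read 10.18, 10.45 and 10.13 in knockout hippocampus, against 8.64, 8.75 and 8.66 in knockout bulb. Syt17 in wild type read 9.96, 10.18 and 10.17 in wild-type hippocampus, against 8.68, 8.73 and 8.55 in wild-type bulb. Every hippocampal value exceeded every bulb value, by 1.57 on average in knockout (SE 0.0924, 2.97-fold, adjusted p = 2.64e-09) and 1.45 in wild type (2.73-fold, adjusted p = 6.67e-09).

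Syt13, a synaptotagmin that does not bind calcium, read 10.02, 10.03 and 10.03 in knockout hippocampus, against 8.67, 8.86 and 8.67 in knockout bulb. Syt13 in wild type read 10.05, 9.91 and 9.94 in wild-type hippocampus, against 8.93, 8.83 and 8.86 in wild-type bulb. The groups again did not overlap, and Syt13 was higher in hippocampus by 2.45-fold in knockout (adjusted p = 1.24e-09) and 2.13-fold in wild type (adjusted p = 8.7e-09).

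The other synaptotagmins moved less. Syt4, whose first C2 domain lacks normal calcium binding, was higher in hippocampus by 0.66 in knockout and 0.70 in wild type (adjusted p = 7.8e-06 and 4.26e-06). Its relative Syt11 was higher by 0.33 and 0.31, and the slow sensor Syt7 by 0.40 and 0.51. Syt1, the main fast sensor of forebrain neurons, differed by -0.15 in knockout and -0.12 in wild type and did not pass (adjusted p = 0.0532 and 0.102). Syt12, another form without calcium binding, differed by -0.08 and -0.19 and did not pass. For Syt5 the difference was -0.03 in knockout, or 0.04 with arrays centred on their medians, and -0.17 in wild type, none past the threshold.

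Syt2, the fast sensor of hindbrain and many inhibitory terminals, passed in knockout and not in wild type. Syt2 read 7.23, 7.19 and 7.33 in knockout hippocampus, against 6.79, 6.80 and 6.72 in knockout bulb. Syt2 in wild type read 6.84, 6.96 and 6.89 in wild-type hippocampus, against 6.91, 6.77 and 7.00 in wild-type bulb. Knockout hippocampus lay above the other 3 groups, while the wild-type tissues overlapped. The tissue difference was 0.48 in knockout (adjusted p = 8.85e-05) and 0.00 in wild type (adjusted p = 0.973). The test of that gap itself gave 0.48 and did not pass (SE 0.105, adjusted p = 0.241), and all its array values were near the array medians, in the dim range.

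The Doc2 proteins are soluble sensors with paired C2 domains and high calcium affinity, tied to spontaneous and asynchronous release. Doc2b read 9.81, 9.74 and 9.65 in knockout hippocampus, against 6.99, 7.08 and 7.03 in knockout bulb. Doc2b in wild type read 9.70, 9.84 and 9.90 in wild-type hippocampus, against 7.05, 7.17 and 6.97 in wild-type bulb. In the bulb its signal lay close to the array median, so that the fold may understate the change, and in the hippocampus far above it. Its 6.5-fold excess in knockout hippocampus (2.70, SE 0.0766, adjusted p = 9.81e-13) and 6.73-fold excess in wild-type hippocampus (2.75, adjusted p = 8.88e-13) were the largest among the members in the hippocampal direction.

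Doc2a read 7.82, 7.74 and 7.93 in knockout hippocampus, against 7.94, 7.89 and 7.88 in knockout bulb. Doc2a in wild type read 7.62, 7.63 and 7.51 in wild-type hippocampus, against 7.88, 7.79 and 7.71 in wild-type bulb. The wild-type bulb arrays lay above the wild-type hippocampal ones by a small step, and the knockout groups lay closer. The difference was -0.07 in knockout (adjusted p = 0.448), or 0.01 with quantile normalization. In wild type it was -0.21 (adjusted p = 0.0302), a call lost with arrays centred on their medians (adjusted p = 0.334) and with the animal as a fixed block (adjusted p = 0.0688). The Doc2 pair thus split, with Doc2b the hippocampal paralogue and no firm tissue side for Doc2a.

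**Figure D3:**
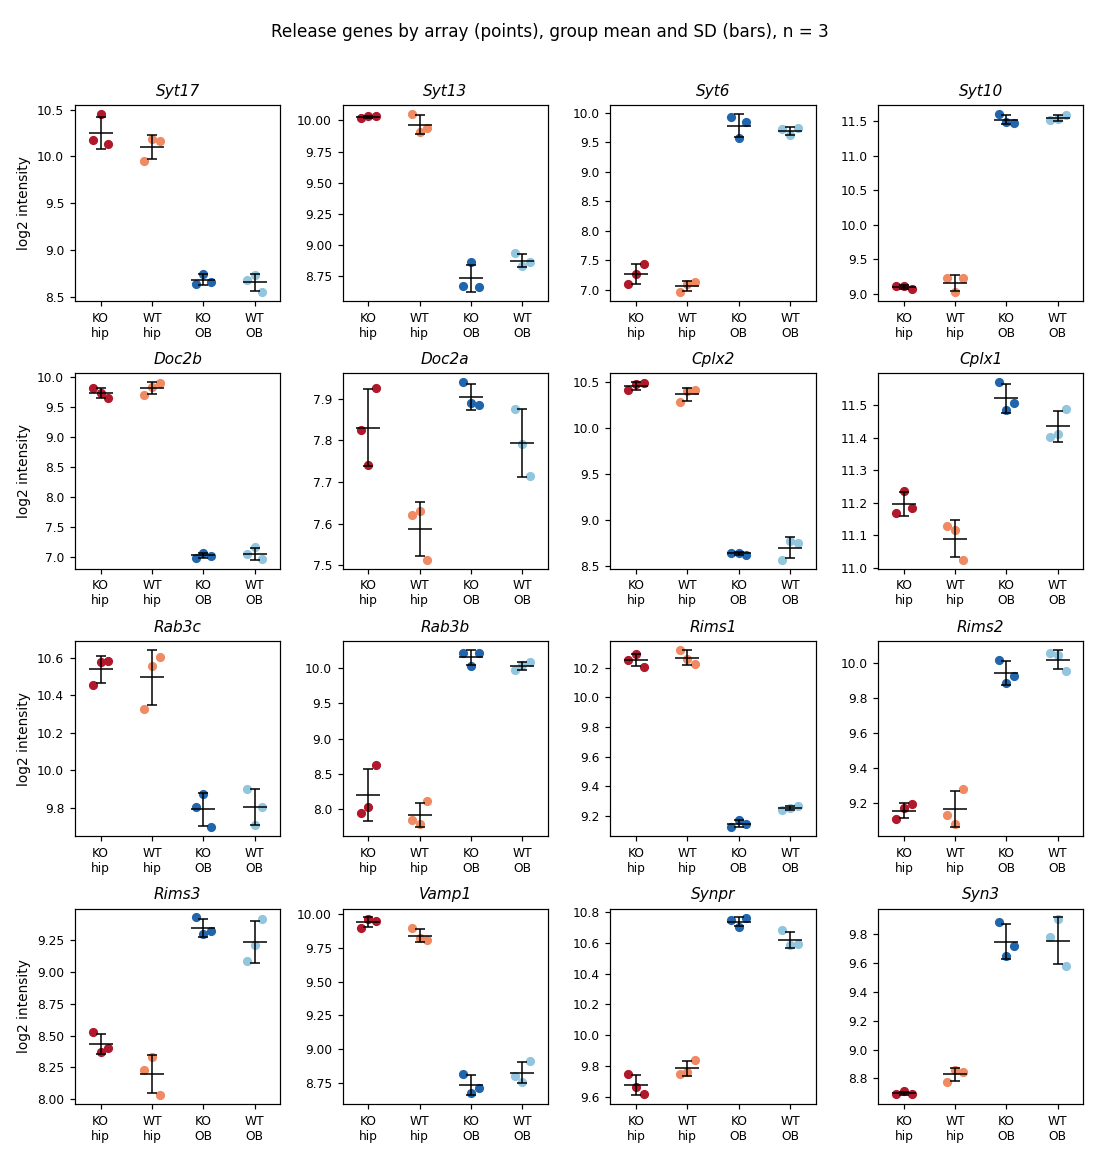
Log2 intensity of 16 release genes on each array, with 1 panel a gene and its own axis, which does not start at 0. Points are arrays of knockout (KO) and wild-type (WT) hippocampus (hip) and olfactory bulb (OB), the long bar is the mean and the short bars the SD (n = 3). Tissues are apart in every panel but Doc2a, where the knockout groups meet between 7.74 and 7.94.

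Complexins are small proteins that bind the assembled SNARE complex, hold it before calcium enters and promote fusion afterwards. Cplx2 and Cplx1 had opposite sides. Cplx2 read 10.41, 10.48 and 10.49 in knockout hippocampus, against 8.64, 8.65 and 8.62 in knockout bulb. Cplx2 in wild type read 10.29, 10.40 and 10.41 in wild-type hippocampus, against 8.57, 8.78 and 8.75 in wild-type bulb. The hippocampal arrays stood well apart from all bulb arrays, and Cplx2 was higher by 3.54-fold in knockout (SE 0.0708 on the log2 scale, adjusted p = 3.05e-11) and 3.18-fold in wild type (adjusted p = 7.47e-11).

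Cplx1 read 11.17, 11.24 and 11.18 in knockout hippocampus, against 11.57, 11.48 and 11.50 in knockout bulb. Cplx1 in wild type read 11.13, 11.12 and 11.03 in wild-type hippocampus, against 11.40, 11.41 and 11.49 in wild-type bulb. The step was small but without overlap, and Cplx1 was lower in hippocampus by 1.25-fold in knockout (adjusted p = 0.000719) and 1.27-fold in wild type (adjusted p = 0.000427). Cplx3, the complexin of retinal ribbon synapses, was dim. It differed by -0.07 in knockout (adjusted p = 0.618) and passed in wild type at -0.28 (adjusted p = 0.032, but 0.183 with arrays centred on their medians).

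Promoters of paralogues with opposite sides were read to show what stands upstream of each. The windows are the 250 bases before the gene start in RefSeq's GRCm38.p6 tables, which held 29 of the 42 members. Capitals mark GGGCGG, the core of an SP1 site, or its reverse complement, and lower case is everything else. Cplx1 lies at chr5:108550028-108550277, minus strand, and Cplx2 at chr13:54302306-54302555, plus strand.
Cplx1: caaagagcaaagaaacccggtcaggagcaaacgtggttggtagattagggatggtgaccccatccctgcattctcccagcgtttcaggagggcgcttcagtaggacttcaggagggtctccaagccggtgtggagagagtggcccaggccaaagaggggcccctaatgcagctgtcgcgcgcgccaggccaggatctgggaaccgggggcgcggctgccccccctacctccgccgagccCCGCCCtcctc
Cplx2: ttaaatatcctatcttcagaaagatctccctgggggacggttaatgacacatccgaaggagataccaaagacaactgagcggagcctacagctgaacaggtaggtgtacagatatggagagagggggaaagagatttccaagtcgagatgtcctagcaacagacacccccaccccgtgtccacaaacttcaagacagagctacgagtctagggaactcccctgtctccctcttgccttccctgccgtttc
The Cplx1 window holds 1 match, next to the start, and the Cplx2 window none. On either strand GGGCGG occurred in 23 of the 29 members' windows (79.3%), against 35.4% of the windows of 27025 genes. It was in 10 of 13 members higher in hippocampus in both genotypes and in 8 of 8 lower in both, so it did not part the sides. The members' windows had a median GC content of 61.2%, against 52.4% over all genes, and the part of that in the count was not tested. An EGR1 site (GCGTGGGCG or GCGGGGGCG) occurred in Syn2, Syngr1, Stxbp5 and Unc13a (13.8%), against 3.47% of all windows. These letters are also nearly all G and C, and the part of GC content in this count was not tested either. The 27025 genes are all those with a window, not only genes measured on the arrays. The full cyclic AMP response element TGACGTCA (1.77% of all windows) and the first part of the REST element, TTCAGCACC (0.348% of all), were each found in 1 member, Syn1. These matches describe the letters of the windows and say nothing of binding.

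Rab3 GTPases sit on vesicles in the GTP form and bind RIM and rabphilin. Rab3b read 7.94, 8.04 and 8.63 in knockout hippocampus, against 10.22, 10.03 and 10.21 in knockout bulb. Rab3b in wild type read 7.84, 7.79 and 8.11 in wild-type hippocampus, against 9.97, 10.04 and 10.09 in wild-type bulb. The hippocampal array of knockout animal 6 was higher than the other hippocampal ones, yet stayed under every bulb array. Rab3b was lower in hippocampus by 3.86-fold in knockout (-1.95, SE 0.141, adjusted p = 2.81e-08) and 4.34-fold in wild type (-2.12, adjusted p = 1.1e-08).

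Rab3c read 10.46, 10.58 and 10.58 in knockout hippocampus, against 9.80, 9.87 and 9.69 in knockout bulb. Rab3c in wild type read 10.33, 10.56 and 10.60 in wild-type hippocampus, against 9.90, 9.71 and 9.80 in wild-type bulb. It took the other side, with all hippocampal arrays above all bulb arrays, by 1.68-fold in knockout (adjusted p = 3.91e-06) and 1.62-fold in wild type (adjusted p = 8.63e-06). Rab3a, the main form in brain, was higher in hippocampus by 0.37 in knockout and 0.27 in wild type (adjusted p = 0.000143 and 0.00245).

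The windows before both genes are given because the genes took opposite sides, with capitals as above. Rab3b lies at chr4:108878820-108879069, plus strand, and Rab3c at chr13:110280207-110280456, minus strand.
Rab3b: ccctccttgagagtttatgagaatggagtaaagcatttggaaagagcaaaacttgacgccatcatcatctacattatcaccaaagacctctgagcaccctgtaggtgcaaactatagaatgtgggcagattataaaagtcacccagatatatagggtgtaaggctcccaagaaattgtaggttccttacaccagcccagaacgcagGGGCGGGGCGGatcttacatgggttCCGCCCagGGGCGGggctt
Rab3c: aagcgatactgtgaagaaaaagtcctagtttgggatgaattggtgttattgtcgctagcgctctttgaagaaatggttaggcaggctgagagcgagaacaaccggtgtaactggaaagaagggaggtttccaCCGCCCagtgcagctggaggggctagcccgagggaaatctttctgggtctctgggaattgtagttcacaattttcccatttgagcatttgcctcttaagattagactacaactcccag
The Rab3b window holds 4 matches in its last bases, a pair of them overlapping, and the Rab3c window 1. Over the members with a window the motif did not part the sides, as given above.

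RIM proteins tether calcium channels and Munc13 at the active zone, and Rims3 encodes a short form with a single C2 domain. Rims1 read 10.26, 10.29 and 10.21 in knockout hippocampus, against 9.12, 9.17 and 9.14 in knockout bulb. Rims1 in wild type read 10.32, 10.26 and 10.23 in wild-type hippocampus, against 9.24, 9.25 and 9.26 in wild-type bulb. All hippocampal arrays lay above all bulb arrays, by 2.15-fold in knockout (SE 0.0606 on the log2 scale, adjusted p = 1.17e-09) and 2.03-fold in wild type (adjusted p = 2.96e-09).

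Rims2 and Rims3 ran the other way. Rims3 read 8.53, 8.37 and 8.40 in knockout hippocampus, against 9.43, 9.30 and 9.32 in knockout bulb. Rims3 in wild type read 8.23, 8.33 and 8.03 in wild-type hippocampus, against 9.08, 9.21 and 9.41 in wild-type bulb. The tissues did not overlap, and Rims3 was lower in hippocampus by 1.88-fold in knockout (SE 0.0943, adjusted p = 1.45e-06) and 2.05-fold in wild type (adjusted p = 3.65e-07). Rims2 differed by -0.78 in knockout, with means of 9.16 ± 0.045 in hippocampus and 9.94 ± 0.069 in bulb (SD, n = 3 each, adjusted p = 3.66e-07). In wild type its means were 9.17 ± 0.10 and 10.02 ± 0.056 in the same order (difference -0.85, adjusted p = 1.51e-07). Bassoon (Bsn) and piccolo (Pclo), the giant scaffolds of the active zone, were both higher in hippocampus. Bsn was higher by 0.67 in knockout and 0.80 in wild type, and Pclo by 0.30 and 0.28 (adjusted p of Pclo 0.00405 and 0.00537).

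Munc13 proteins open syntaxin and make docked vesicles ready to fuse. Unc13c, the form best known from cerebellum, read 7.77, 7.70 and 7.83 in knockout hippocampus, against 8.07, 8.20 and 8.18 in knockout bulb. Unc13c in wild type read 7.93, 7.79 and 7.64 in wild-type hippocampus, against 8.42, 8.13 and 7.98 in wild-type bulb. Bulb arrays lay above hippocampal ones in both genotypes, with differences of -0.39 in knockout (adjusted p = 0.00703) and -0.39 in wild type (adjusted p = 0.00633). All 7 single-symbol probe sets of Unc13c had differences under 0, between -1.05 and -0.21 in knockout and between -0.78 and -0.23 in wild type.

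Unc13a, the main priming factor of glutamatergic terminals, read 10.19, 10.33 and 10.25 in knockout hippocampus, against 9.99, 10.13 and 10.11 in knockout bulb. Unc13a in wild type read 10.26, 10.31 and 10.34 in wild-type hippocampus, against 9.96, 10.12 and 10.23 in wild-type bulb. The differences of 0.17 in knockout (adjusted p = 0.0907) and 0.20 in wild type (adjusted p = 0.0474) were small, and the wild-type call was lost with the animal as a block (adjusted p = 0.0582). Its 3 probe sets ran from 0.17 to 0.66 in knockout and from 0.12 to 0.71 in wild type, so the size depends on the probe set. Unc13b differed by 0.17 in knockout and 0.07 in wild type and did not pass.

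SNAREs supply the force of fusion: Vamp1 on the vesicle, Snap25 and Stx1a on the plasma membrane. Vamp1 read 9.90, 9.97 and 9.95 in knockout hippocampus, against 8.82, 8.67 and 8.71 in knockout bulb. Vamp1 in wild type read 9.89, 9.82 and 9.80 in wild-type hippocampus, against 8.80, 8.76 and 8.91 in wild-type bulb. Its tissues stood apart, with Vamp1 higher in hippocampus by 2.3-fold in knockout (SE 0.068 on the log2 scale, adjusted p = 1.66e-09) and 2.02-fold in wild type (adjusted p = 1.2e-08). Stx1a was higher by 0.62 in knockout and 0.47 in wild type (adjusted p = 0.000136 and 0.00134). Tomosyn (Stxbp5), which occupies syntaxin and Snap25 and so restrains fusion, was higher by 0.29 and 0.36 (adjusted p = 0.00249 and 0.000381).

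Snap25 varied within groups. Snap25 read 12.94, 13.00 and 13.07 in knockout hippocampus, against 12.82, 12.57 and 12.52 in knockout bulb. Snap25 in wild type read 13.22, 12.86 and 12.88 in wild-type hippocampus, against 13.36, 13.16 and 12.72 in wild-type bulb. Knockout tissues did not overlap, while the wild-type bulb spanned the whole hippocampal range. The difference in knockout, 0.37, only just passed (SE 0.139, adjusted p = 0.0498) and did not with the animal as a block (adjusted p = 0.0594). In wild type it was -0.09 (adjusted p = 0.629), or 0.02 with arrays centred on their medians.

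Synapsins tie vesicles into the reserve pool. Syn2 read 11.66, 11.63 and 11.72 in knockout hippocampus, against 11.11, 11.03 and 11.02 in knockout bulb. Syn2 in wild type read 11.72, 11.67 and 11.64 in wild-type hippocampus, against 11.08, 11.06 and 10.99 in wild-type bulb. Syn2 was higher on every hippocampal array, by 1.53-fold in knockout (adjusted p = 1.37e-06) and 1.55-fold in wild type (adjusted p = 1.02e-06).

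Syn3, the synapsin linked to young neurons and neurite growth, read 8.69, 8.71 and 8.69 in knockout hippocampus, against 9.89, 9.65 and 9.72 in knockout bulb. Syn3 in wild type read 8.78, 8.86 and 8.85 in wild-type hippocampus, against 9.78, 9.90 and 9.58 in wild-type bulb. It lay on the bulb side without overlap, lower in hippocampus by 2.07-fold in knockout (SE 0.0849 on the log2 scale, adjusted p = 9.4e-08) and 1.9-fold in wild type (adjusted p = 3.94e-07). Syn1 differed by -0.13 in knockout (adjusted p = 0.166) and passed as lower in wild-type hippocampus at -0.24 (adjusted p = 0.0136, but 0.21 with arrays centred on their medians).

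Synaptophysin (Syp) and synaptoporin (Synpr) are related membrane proteins of the vesicle. Synpr read 9.75, 9.66 and 9.62 in knockout hippocampus, against 10.75, 10.70 and 10.76 in knockout bulb. Synpr in wild type read 9.75, 9.76 and 9.84 in wild-type hippocampus, against 10.68, 10.58 and 10.59 in wild-type bulb. Synpr was lower on every hippocampal array, by 2.08-fold in knockout (SE 0.0648 on the log2 scale, adjusted p = 4.13e-09) and 1.79-fold in wild type (adjusted p = 6.11e-08).

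Syp read 11.59, 11.70 and 11.71 in knockout hippocampus, against 11.35, 11.38 and 11.40 in knockout bulb. Syp in wild type read 11.65, 11.71 and 11.72 in wild-type hippocampus, against 11.31, 11.30 and 11.42 in wild-type bulb. It was higher in hippocampus by 0.29 in knockout (adjusted p = 0.00212) and 0.35 in wild type (adjusted p = 0.000485), again with no overlap. The synaptogyrins are vesicle proteins of similar topology. Syngr3 was higher by 0.33 in knockout and 0.24 in wild type (adjusted p = 0.00301 and 0.0186). Syngr1 was lower in knockout hippocampus at -0.20 (adjusted p = 0.0367, but 0.0855 with the animal as a fixed block and 0.163 with arrays centred on their medians) and differed by -0.13 in wild type without passing.

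After fusion, beta-SNAP (Napb) brings the ATPase NSF to spent SNARE complexes, and dynamin 1 (Dnm1) cuts vesicles free in endocytosis. Dnm1 read 12.21, 12.37 and 12.28 in knockout hippocampus, against 12.07, 12.06 and 12.02 in knockout bulb. Dnm1 in wild type read 12.26, 12.33 and 12.24 in wild-type hippocampus, against 12.05, 12.09 and 12.05 in wild-type bulb. The steps were small and without overlap, at 0.24 in knockout (adjusted p = 0.00801) and 0.21 in wild type (adjusted p = 0.0152, but 0.0663 with the animal as a fixed block).

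Napb read 11.38, 11.46 and 11.37 in knockout hippocampus, against 11.52, 11.40 and 11.32 in knockout bulb. Napb in wild type read 11.45, 11.40 and 11.37 in wild-type hippocampus, against 11.87, 11.62 and 11.47 in wild-type bulb. The knockout tissues overlapped, and the wild-type bulb was spread upward by animal 1. Napb differed by -0.01 in knockout, or 0.06 with arrays centred on their medians, and did not pass. In wild type it passed at -0.24 (adjusted p = 0.043), but not with the animal as a block (adjusted p = 0.0516) or with centred arrays (adjusted p = 0.297).

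Read across families, the bulb side was held by Syt6, Syt9, Syt10, Rab3b, Rims2, Rims3, Syn3, Synpr, Unc13c and Cplx1. The hippocampal side was held by Doc2b, Cplx2, Syt4, Syt7, Syt11, Syt13, Syt17, Vamp1, Stx1a, Stxbp5, Rims1, Bsn, Pclo, Rab3a, Rab3c, Syn2, Syp, Syngr3 and Dnm1. Whether the genotype altered these sides was tested as the difference between the tissue differences. It passed for 0 of the 41 members in limma, against 0.015% of all genes. At an unadjusted p under 0.05 there were 3 members (Syt2, Snap25 and Synpr), against 10.7% of all genes. The members called in a single genotype were therefore not shown to differ between genotypes.

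Markers of neurons and of glia also differed between the regions. All 8 measured GABAergic markers were lower in hippocampus in both genotypes, with a median of -2.14 in knockout and -2.08 in wild type. Their mean level ran from 8.37 to 8.44 in knockout hippocampus and from 10.62 to 10.75 in knockout bulb, and from 8.32 to 8.35 in wild-type hippocampus and from 10.51 to 10.63 in wild-type bulb. Of 7 glutamatergic markers 6 were higher and Slc17a6, a vesicular glutamate transporter, was lower. Of 13 markers of neurons in general 7 were higher and 2 lower in knockout, and 8 higher and 3 lower in wild type, and their mean level was 10.33 to 10.37 in knockout hippocampus against 9.92 to 9.93 in knockout bulb. All 5 measured markers of olfactory ensheathing glia were lower in hippocampus in both genotypes, with a median of -1.24 in knockout and -1.15 in wild type. Their mean level was 8.81 to 8.92 in knockout hippocampus against 9.89 to 10.07 in knockout bulb, and 8.78 to 8.91 in wild-type hippocampus against 9.98 to 10.11 in wild-type bulb. Of 8 astrocyte markers 4 were higher and 2 lower in knockout, and 3 higher and 2 lower in wild type. Oligodendrocyte markers were higher in hippocampus for 7 of 7 in knockout and 2 of 7 in wild type, with medians of 0.44 and 0.14. The limma test of that gap between genotypes passed for 0 of these 7 markers (lowest adjusted p = 0.389). Their mean level was 9.01 to 9.41 in knockout hippocampus against 8.71 to 8.82 in knockout bulb, and 8.96 to 9.10 in wild-type hippocampus against 8.78 to 8.89 in wild-type bulb. The release genes' own mean level was 9.80 to 9.85 in knockout hippocampus against 9.74 to 9.78 in knockout bulb, and 9.78 to 9.79 in wild-type hippocampus against 9.77 to 9.80 in wild-type bulb. The group means of that level lay between 9.76 and 9.83. The part of cell makeup in each member's difference was not tested.

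**Figure D4:**
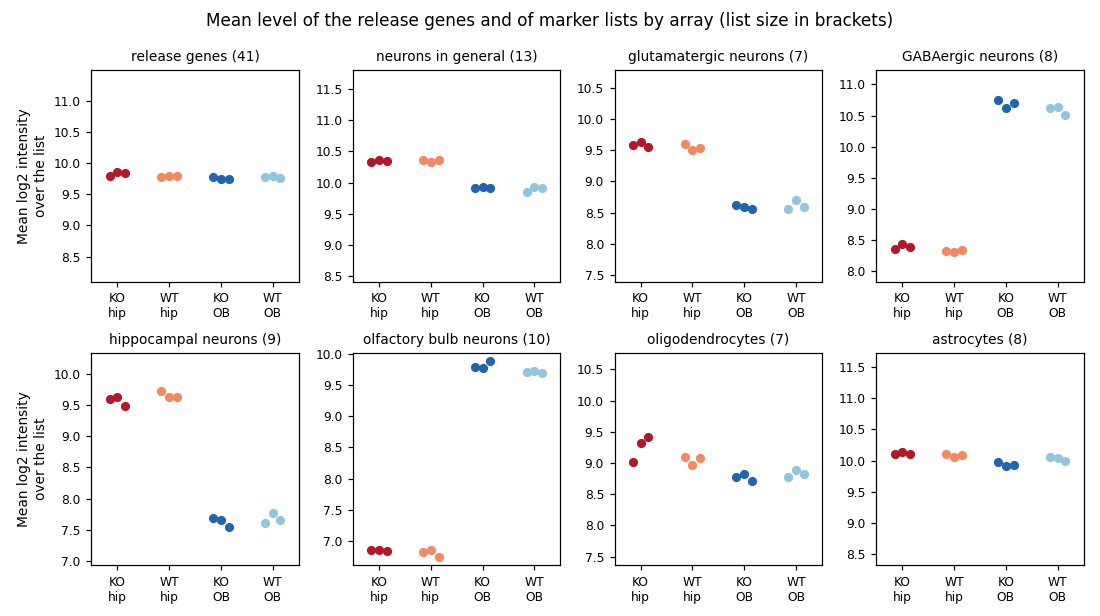
Mean log2 intensity over the 41 release genes and over 7 marker lists on each array, in knockout (KO) and wild-type (WT) hippocampus (hip) and olfactory bulb (OB), with all panels spanning the same number of log2 units. The release genes sit between 9.74 and 9.85 in all 4 groups, while GABAergic markers sit at 8.32 to 8.44 in hippocampus and 10.51 to 10.75 in bulb.

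The rest of the pathway was counted over a list of 84 other release and vesicle retrieval genes, of which 80 were measured. In knockout 28 were higher in hippocampus and 13 lower, against 19.2% and 19.9% of all genes. In wild type 27 were higher and 14 lower, against 17.5% and 23.4% of all. In both genotypes the higher calls were a larger share of the 80 than of all genes, and the lower calls a smaller share. Doc2g, another Doc2 gene that also stands in the list of bulb neuron markers, averaged 7.20 ± 0.056 in knockout hippocampus and 10.37 ± 0.064 in knockout bulb (SD, n = 3 each). It was lower by 9.02-fold in knockout (adjusted p = 3.35e-13) and 8.14-fold in wild type (adjusted p = 5.57e-13), opposite to Doc2b. Rph3a, which encodes the Rab3 effector rabphilin, was higher in hippocampus by 1.92 in knockout and 1.60 in wild type. Cadps2, a priming factor of dense-core vesicles, was higher by 1.67 and 1.48. The Rab27 effector Sytl5 was higher by 1.30 and 1.24, and Rab27b, a GTPase of secretory vesicles, by 1.21 and 1.12. Stx2, a plasma membrane syntaxin, was higher by 1.00 and 0.71, and Syt16, a synaptotagmin relative, by 0.83 and 1.05. Each of these passed in both genotypes. The 22 retrieval genes split 5 higher and 5 lower in knockout, against 19.2% and 19.9% of all genes. In wild type they split 6 and 6, against 17.5% and 23.4% of all.

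Loss of RasGRF2 left no release gene past the threshold in either tissue. In hippocampus limma called 0 of 41 members, against 0.256% of all genes, and at an unadjusted p under 0.05 there were 4 members, against 8.91% of all. In bulb it called 0, against 0.411% of all genes, with 2 members at an unadjusted p under 0.05, against 11.3% of all. The median difference was 0.02 in hippocampus and -0.02 in bulb, against 0.03 and -0.02 over all genes. The median size was 0.06 and 0.07, against 0.07 and 0.08 over all genes. Knockout and wild-type values did not overlap for 10 members in hippocampus, against 13.1% of all genes, and for 6 in bulb, against 17.1% of all. Among the 80 other genes of the pathway 0 passed in either tissue, with 4 in hippocampus and 6 in bulb at an unadjusted p under 0.05.

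The 4 hippocampal members at an unadjusted p under 0.05 were all calcium sensors or a RIM. Syt2 read 7.23, 7.19 and 7.33 in knockout hippocampus, against 6.84, 6.96 and 6.89 in wild-type hippocampus. All 3 knockout values lay above the wild-type ones, by 0.35 (SE 0.0744, adjusted p = 0.0837). Doc2a differed by 0.24 (SE 0.0712, adjusted p = 0.313), without overlap. Rims3 differed by 0.24 (adjusted p = 0.519) and Syt9 by 0.23 (adjusted p = 0.529). With array weights Syt2 and Doc2a passed in hippocampus (adjusted p = 0.00942 and 0.0461), a fit that gave the array of knockout animal 4 a weight of 4.31. Beside these values, 7 of 7 oligodendrocyte markers were above 0 in knockout hippocampus against wild type, as were 12569 of all 19938 genes. Of these markers 0 passed the threshold, and their mean level was 9.01 to 9.41 in knockout and 8.96 to 9.10 in wild type. The value of 9.01, from knockout animal 4, lay within the wild-type range. The part of these markers' cells in the Syt2 and Doc2a values was not tested.

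In the bulb the members with an unadjusted p under 0.05 were Snap25 and Napb. Snap25 read 12.82, 12.57 and 12.52 in knockout bulb, against 13.36, 13.16 and 12.72 in wild-type bulb. The lowest wild-type array, of animal 3, fell within the knockout range, and the difference of -0.44 did not pass (SE 0.139, adjusted p = 0.261). Without that array it was -0.63 (adjusted p = 0.0322). Napb differed by -0.24 (adjusted p = 0.358), with knockout values of 11.52, 11.40 and 11.32 and wild-type values of 11.87, 11.62 and 11.47, which overlapped.

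**Figure D5:**
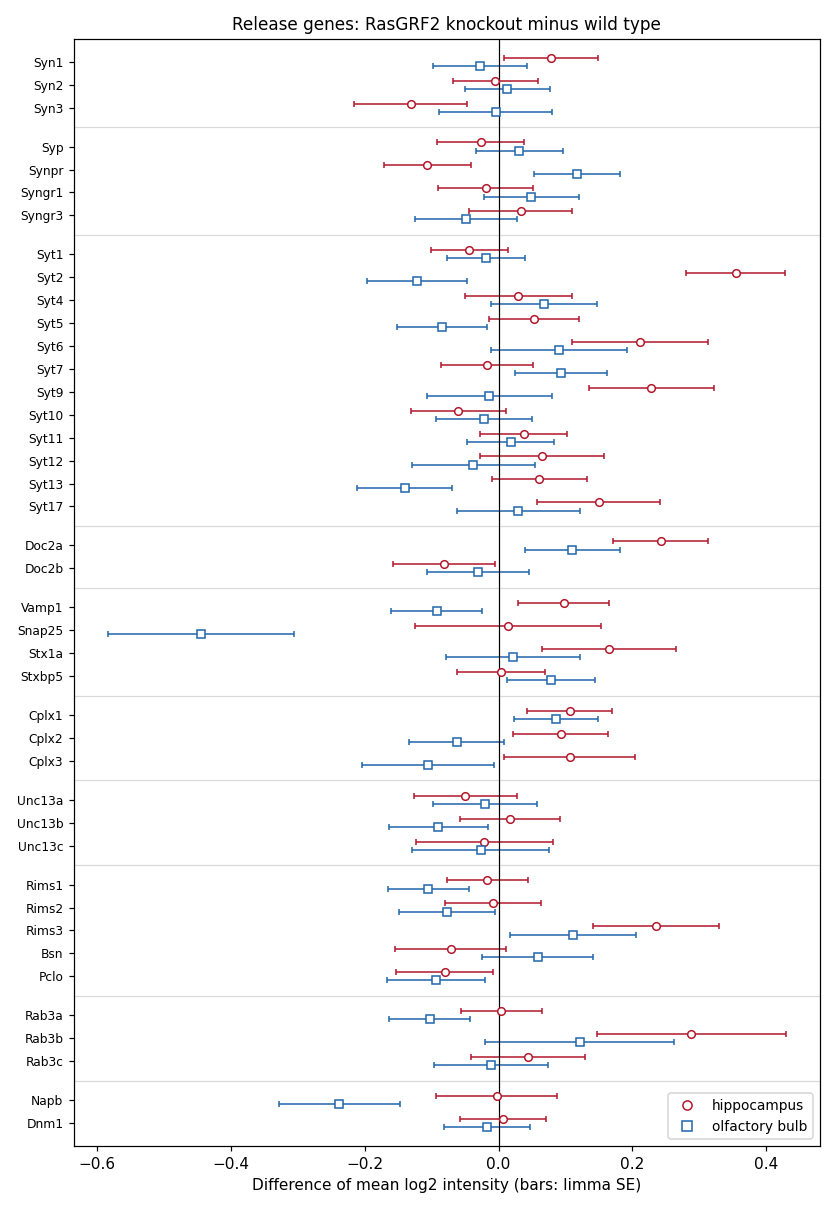
Difference of mean log2 intensity, RasGRF2 knockout minus wild type, for each of the 41 release genes in hippocampus (red circles) and olfactory bulb (blue squares), with limma standard errors as bars (n = 3 arrays a group). Symbols are open because none passed adjusted p of 0.05, on an axis narrower than that of the tissue differences, with Syt2 in hippocampus at 0.35 and Snap25 in bulb at -0.44 farthest out.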

How the data were processed

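Total RNA was measured on 12 one-colour arrays, 3 a group. The authors deposited log2 intensities made with RMA and the oligo package, per the submitters' processing notes, with versions not given in the sources used here. RMA aligns array distributions and compresses differences near background. Of 35556 probe sets, 21789 carried 1 symbol in the platform annotation (1621 carried several and 12146 were not listed), and the probe set of highest mean stood for each of 19938 genes. No gene was filtered. The number of arrays limits the precision, and there is no read depth.

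The limma package (3.58.1, R 4.3.3) tested group differences (lmFit and eBayes, default settings) in 1 model of 4 group means, with Benjamini-Hochberg adjustment over the genes at 0.05. The script was tested on simulated data. Files were read in R through data.table (1.17.8), and matplotlib 3.10.9 drew the figures. Every member may be named. Values of every array are given for the 8 largest tissue differences in wild type and for the extremes of each family, and of the other pathway genes the 6 largest past the threshold in each comparison of tissues are named. Syt2 is also given on every array, though it falls outside this rule. Members and lists were chosen with earlier results of these data known. Both tissues came from the same animals, tied by the source code in the labels, while the title's number ties 2 wild-type animals otherwise. Deviations of paired arrays correlated at -0.255 to 0.116 by the code and at -0.208 to 0.252 by the title's number. Animal entered as a block only as an alternative. Promoter windows come from RefSeq tables of GRCm38.p6. No genome build is given for the arrays in the sources used here.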

Additional observations from a re-analysis of the deposited data

How the results depend on the processing

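Each comparison of tissues was repeated under 23 alternatives: other scalings, probe set rules, moderation, array weights, animal blocks, only the groups compared, and each array left out in turn. Of the 29 members called in both genotypes, 27 (17 higher and 10 lower in hippocampus) were called in both under every alternative that gave a value. The exceptions were Syngr3 and Dnm1, each lost in wild type under some. Syngr3 was called in 20 of 23 and Dnm1 in 21. Leaving out an array gave 30 to 32 members called in knockout and 29 to 34 in wild type, against 32 and 34 with all arrays, and the other settings gave 31 to 34 and 30 to 36. Of the calls made in a single genotype, that of Syt2 in knockout held in 22 of 22 alternatives that gave a value. The others were each lost under some settings. Snap25 in knockout held in 11 of 23 and Syngr1 in 16. In wild type Unc13a held in 8 of 23, Napb in 11, Doc2a in 16, Syn1 in 21 and Cplx3 in 15 of 22. Members that had not passed were called under some alternatives of the 23. In knockout these were Syt1 and Unc13a in 4 each, Unc13b in 3 and Syn1 in 1, and in wild type Syt5 in 3, Syt1 in 2 and Syngr1 in 1.

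With the replicate block by animal code 31 members were called in knockout and 32 in wild type, and by title number 31 and 33, at block correlations of -0.0697 and -0.0316. As a fixed block it gave 31 and 30. The calls it ended, in 1 or more of these fits, were Snap25 and Syngr1 in knockout and Unc13a, Napb, Doc2a and Dnm1 in wild type, and it changed no other member call.

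Knockout against wild type gave 0 members in hippocampus except with array weights (2). In bulb leaving out an array gave 0 to 1, the 1 being Snap25 without wild-type animal 3. The interaction gave 0 throughout.

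Signs turned for members that had not passed. With arrays centred on their medians Syt5 was 0.0409 and Napb 0.0618 in knockout, and Snap25 0.0203 in wild type. With quantile normalization Doc2a was 0.0118 in knockout. Leaving out an array gave -0.0647 to 0.0210 for Syt5, -0.131 to 0.0078 for Syt12 and -0.0542 to 0.0450 for Napb in knockout. In wild type it gave -0.0582 to 0.0566 for Syt2 and -0.274 to 0.0468 for Snap25. The cause was not tested. Groups of 3 arrays and signals near background, as for Syt2 and Cplx3, limit what could be seen.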
